A study of Mus musculus with 24 samples.

Results

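Refeeding was examined in 6 of the 24 liver libraries of the series, 3 from refed and 3 from fasted C57BL/6 mice of the genotype FoxO1lox/lox, called WT here. These are all libraries titled as the wild type of the constitutive model, and they were chosen by title alone. The WT refed mice had been fasted for 4 h and then refed for 1 h, and the WT fasted mice had been fasted for 4 h. Both groups carry loxP sites in both Foxo1 alleles, so WT stands for floxed animals without deletion rather than for an unmodified Foxo1 gene. Each was set beside 6 further groups of 3 libraries. KO refed and KO fasted livers came from FoxO1-/- mice, in which Albumin-cre removes the floxed gene in liver. GFP refed and GFP fasted livers came from floxed mice given AAV8.TBG.eGFP, and Cre refed and Cre fasted livers from floxed mice given AAV8.TBG.Cre, both taken 21 days after a tail vein injection, with expression from the hepatocyte promoter TBG. The labels give neither age nor sex, nor the hour of day at which either feeding group was taken. Nothing in them says that each library is a different animal, and the p-values below therefore describe the spread among these libraries alone, part of which may be technical.

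As background, a meal raises insulin and lowers glucagon. Insulin acts through the kinase AKT, which keeps the transcription factor FoxO1 out of the hepatocyte nucleus, lowers the transcription of gluconeogenic genes and raises that of lipogenic genes. Amino acids and insulin also activate mTORC1, which promotes ribosome production, while fasting favours fatty acid oxidation under the nuclear receptor PPAR-alpha.

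The expression level was the deposited FPKM, fragments scaled by the length of the transcript and by the number mapped in the library. Differences were tested on log2(FPKM + 1) with limma, fitted over the 12 WT and KO libraries, and a gene was called where its Benjamini-Hochberg adjusted p was below 0.05. Of 10375 genes tested, 33 were called between refed and fasted WT livers (0.318%), 16 of them higher in refed livers (0.154%) and 17 lower (0.164%). In all 33 the 3 refed values lay wholly above or wholly below the 3 fasted values, as they did upward in 10.2% and downward in 9.51% of all genes tested. An unadjusted p below 0.05 was reached by 1614 genes (15.6%). The changes were small: 6 of the 33 exceeded 1 on the log2 scale, and 18 of the 33 had a mean level under 10 FPKM. With libraries rescaled by median-of-ratios the test called 82 genes, 29 higher and 53 lower in refed livers. Leaving out single libraries moved the count, to 6 calls without WT refed replicate 3, 9 without WT fasted replicate 2 and 16 without WT fasted replicate 1.

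**Figure D1:**
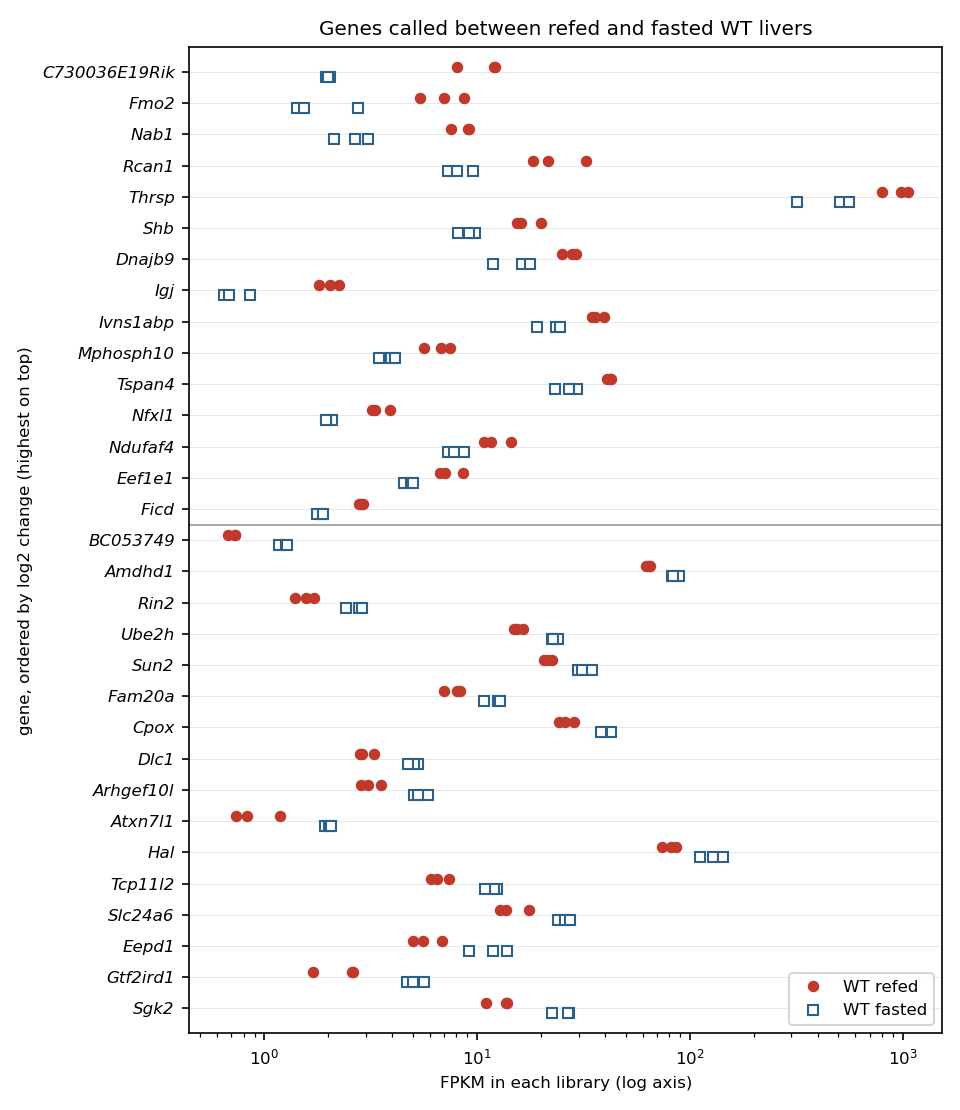
FPKM (log axis) of 31 called genes in the 3 WT refed libraries (filled circles) and the 3 WT fasted libraries (open squares), ordered by log2 change, with genes higher in refed livers above the grey line. Apoo-ps is left out because its refed values are near 0. In every gene shown the 2 groups are apart, and most of the gaps are narrower than that of Nab1, whose refed values lie between 7.54 and 9.20 FPKM and fasted values between 2.13 and 3.08 FPKM.

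Foxo1 (chr3:52268337-52350109, mm10) checked the labels of genotype, but not those of feeding. Its level was 4.92, 5.30 and 6.79 FPKM in WT refed livers, against 4.21, 5.87 and 5.92 FPKM in WT fasted livers. The 2 groups overlapped, with a log2 change of 0.08 ± 0.13 (SE; adjusted p = 0.809), while all 6 KO libraries lay between 0.341 and 0.494 FPKM. The summed level of 8 hepatocyte markers was 53010 to 60260 FPKM in WT refed and 55120 to 65730 FPKM in WT fasted livers, with all 8 at 1 FPKM or more in every library. Kupffer cell markers summed to 130 to 142 FPKM in refed livers, against 66.1, 113 and 120 FPKM in fasted livers, and 8 of 8 had a log2 change above 0. Stellate cell markers summed to 65.9 to 95.5 FPKM in refed and 50.2 to 57.7 FPKM in fasted livers, with 7 of 8 above 0. No marker of either list passed the test or was at 0 in all libraries of a group, and their part in the results below was not tested. In such bulk samples fewer cells of a type and less RNA per cell cannot be told apart. Total depth is unknown. Steps between low values put the 6 libraries between 0.993 and 1.15 times the depth of WT fasted replicate 1.

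Among the genes through which a meal is known to act on glucose and fat, the lipogenic regulator Thrsp rose. Thrsp (chr7:97412957-97417510) encodes Spot 14, a nuclear protein of fatty acid synthesis that carbohydrate feeding induces. Its level was 989, 799 and 1059 FPKM in refed livers, against 507, 319.6 and 559 FPKM in fasted livers. It was the most abundant of the called genes, with a ratio of 2.05 and a log2 change of 1.07 ± 0.18 (adjusted p = 0.0368), and it lost its call without WT refed replicate 1 or 3 or WT fasted replicate 1 or 2 (adjusted p up to 0.144).

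Several other insulin-responsive genes did not pass. G6pc, the glucose-6-phosphatase that releases glucose, had 291, 111 and 227 FPKM in refed livers, against 362, 189 and 217 FPKM in fasted livers. Pck1, the gluconeogenic phosphoenolpyruvate carboxykinase, had 1054, 1114 and 1179 FPKM against 995, 1252 and 1082 FPKM in the same order. In both the groups overlapped, with log2 changes of -0.34 ± 0.35 and 0.01 ± 0.22. Igfbp1, a secreted binding protein that insulin represses, had 43.7, 32.7 and 60.3 FPKM in refed livers, against 59.1, 68.1 and 50.2 FPKM in fasted livers (log2 change -0.40 ± 0.21, adjusted p = 0.386). Irs2, the insulin receptor substrate that fasting induces, ranged from 0.734 to 2.10 FPKM in refed livers and from 1.58 to 1.80 FPKM in fasted livers. Its log2 change was -0.24 ± 0.20, and those of the coactivator Ppargc1a and of Srebf1, the gene of the lipogenic factor SREBP-1, were -0.11 ± 0.13 and 0.28 ± 0.28. Replicates of the refed group differed more than the groups did: Srebf1 was at 79.6, 33.1 and 48.5 FPKM in refed livers against 35.0, 47.6 and 42.4 FPKM in fasted livers, and Fasn, fatty acid synthase, at 65.2, 21.3 and 37.0 against 40.5, 27.5 and 36.2 FPKM.

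Cyp7a1, the enzyme that sets the rate of bile acid synthesis, had 74.1, 76.9 and 99.7 FPKM in refed livers, against 56.0, 24.03 and 27.8 FPKM in fasted livers. The groups did not overlap, yet the log2 change of 1.28 ± 0.29 missed the threshold (adjusted p = 0.0722). Cyp8b1, the sterol 12-alpha-hydroxylase that sets the ratio of bile acids, overlapped between groups at -0.24 ± 0.25. Pdk4, a kinase that blocks glucose oxidation, was near 1 FPKM or below, with 0.718, 0.422 and 0.581 FPKM in refed livers against 1.33, 1.05 and 0.660 FPKM in fasted livers (log2 change -0.35 ± 0.14, adjusted p = 0.278, and -0.70 with a pseudocount of 0.1). The fasting hormone Fgf21 was likewise low, at 0.430 to 1.21 FPKM in refed and 0.680 to 1.08 FPKM in fasted livers (-0.10 ± 0.25). Tsku, a secreted leucine-rich repeat protein of liver, had 106, 46.9 and 79.4 FPKM in refed livers against 19.0, 21.7 and 37.2 FPKM in fasted livers (1.53 ± 0.31, adjusted p = 0.0604). Insig2, which retains SREBP in the endoplasmic reticulum, had 42.1, 26.5 and 28.1 FPKM in refed livers against 82.6, 52.3 and 54.5 FPKM in fasted livers (-0.95 ± 0.20, adjusted p = 0.0604). These last 2 genes also had groups that did not overlap.

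**Figure D2:**
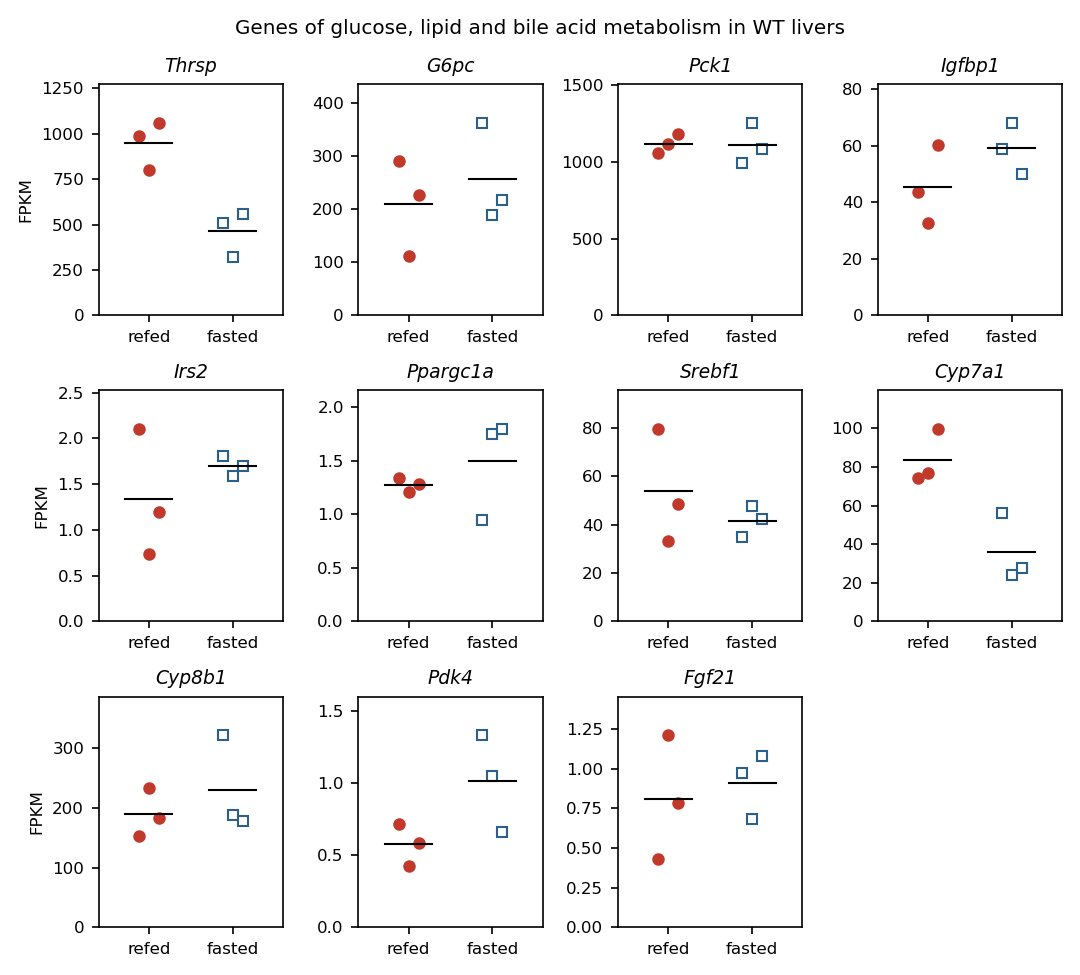
FPKM of 11 metabolic genes in the 3 WT refed libraries (filled circles, left) and the 3 WT fasted libraries (open squares, right), each axis from 0, with black lines at the group means. Thrsp passed the test, Cyp7a1 is apart without passing it (adjusted p = 0.0722), and the other 9 genes overlap between the groups.

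Over 21 genes of glucose uptake, glycolysis and glycogen, 13 were above 0 and 8 below, and the median log2 change was 0.10, beside 0.01 over all genes tested. Of the 19 tested members of the fatty acid synthesis list, Thrsp was the 1 call, with 10 above 0 and 9 below. None of 15 gluconeogenesis genes, 20 cholesterol synthesis genes, 17 genes of insulin signalling and 17 genes of lipid export passed, and their medians lay between -0.08 and -0.0058, which turned sign in some alternatives for all but gluconeogenesis. Targets of FoxO1 known from liver were below 0 in 14 of 17 tested members (median -0.12), with none called, none apart between groups and the lowest value at Igfbp1. The median of this list was -0.184 in KO livers and -0.244 in GFP livers. Across all genes tested, 52.5% were above 0.

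Nab1 (chr1:52455849-52500448), a corepressor of the Egr transcription factors, had the lowest adjusted p of the rising genes. Its level was 7.54, 9.07 and 9.20 FPKM in WT refed livers, against 2.13, 2.65 and 3.08 FPKM in WT fasted livers. Every refed value was above every fasted value by a wide margin. The means, 8.60 ± 0.92 and 2.62 ± 0.47 FPKM (SD, n = 3 each), gave a ratio of 3.28 and a log2 change of 1.41 ± 0.16 (limma adjusted p = 0.00721). The call held in every alternative run and without any single library, there with an adjusted p of up to 0.0495. The paralog Nab2 was at 2.82, 4.27 and 2.42 FPKM in refed livers against 3.71, 4.88 and 3.85 FPKM in fasted livers, which overlapped (log2 change -0.32 ± 0.25). Shb (chr4:45423276-45530828), an SH2 adaptor protein of tyrosine kinase signalling, had 19.98, 15.4 and 16.1 FPKM in refed livers, against 8.15, 9.80 and 9.17 FPKM in fasted livers. It rose 1.90 times (log2 change 0.85 ± 0.11, adjusted p = 0.0124) and stayed called without any single library, but not in a fit of the 6 WT libraries alone (adjusted p = 0.0605).

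The immediate early genes, whose transcription growth factors induce within minutes, gave no call. Of 13 tested members 10 were above 0, with a median of 0.17, and 2 had refed values wholly above the fasted ones, a share near the 10.2% of all genes tested. The highest was Dusp1, a phosphatase that switches off MAP kinases, at 25.0, 15.6 and 12.5 FPKM in refed livers against 7.09, 3.48 and 6.63 FPKM in fasted livers (log2 change 1.47 ± 0.30, adjusted p = 0.0604). Egr1, an Egr factor itself, was at 3.38, 2.28 and 1.33 FPKM in refed and 2.03, 2.32 and 1.09 FPKM in fasted livers.

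The windows of 250 bases before the start of transcription of Nab1 (chr1:52500449-52500698, minus strand) and Shb (chr4:45530829-45531078, minus strand) are shown because they hold GCGGGGGCG. Egr factors bind this sequence among others, and the capitals mark it. The sequences are RefSeq's for GRCm38.p6 and run 5′ to 3′ on the strand of the gene.
Nab1: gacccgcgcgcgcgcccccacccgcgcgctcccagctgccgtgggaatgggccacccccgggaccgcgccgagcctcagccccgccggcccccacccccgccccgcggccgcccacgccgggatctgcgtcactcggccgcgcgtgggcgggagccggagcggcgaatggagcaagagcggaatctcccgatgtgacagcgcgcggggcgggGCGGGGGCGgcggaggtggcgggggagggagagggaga
Shb: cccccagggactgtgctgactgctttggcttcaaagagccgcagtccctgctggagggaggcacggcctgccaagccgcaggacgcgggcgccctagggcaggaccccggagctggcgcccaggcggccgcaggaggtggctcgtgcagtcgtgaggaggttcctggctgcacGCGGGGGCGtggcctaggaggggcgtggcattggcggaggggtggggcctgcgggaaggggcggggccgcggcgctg
Searched on both strands, GCGGGGGCG was found in 2.57% of 32851 such windows of mouse genes. Of the 33 called genes 27 had a window, 37 windows in all, and 3 of the 37 held it (Nab1, Shb and the falling gene Sun2). Other forms of the Egr site were neither searched for nor marked, among them GCGTGGGCG, which the Nab1 window also holds. A match is a description of the letters and not a measured binding site.

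Among other signalling genes, Rcan1 rose and Sgk2 fell. Rcan1 (chr16:92391953-92466146), an inhibitor of the calcium-dependent phosphatase calcineurin, had 32.4, 18.2 and 21.5 FPKM in refed livers, against 7.33, 9.61 and 8.03 FPKM in fasted livers. It rose 2.89 times (log2 change 1.39 ± 0.19, adjusted p = 0.0132) and lost its call when WT refed replicate 3 was left out (adjusted p = 0.0539). Sgk2 (chr2:162987481-163014127), a kinase of the family regulated by serum and glucocorticoids, had 13.8, 13.7 and 11.01 FPKM in refed livers, against 22.5, 27.2 and 26.8 FPKM in fasted livers. All refed values were the lower ones, with a fasted over refed ratio of 1.99 and a log2 change of -0.94 ± 0.12 (adjusted p = 0.0106), and the call held without any single library. Its paralogs did not pass: Sgk1 was at -0.08 ± 0.12 and Sgk3 at -0.11 ± 0.14 on the log2 scale. Slc24a6, listed in RefSeq as Slc8b1, encodes the sodium-calcium exchanger of mitochondria. It fell to 13.7, 17.6 and 12.8 FPKM in refed livers, against 23.9, 26.0 and 27.3 FPKM in fasted livers (log2 change -0.78 ± 0.14, adjusted p = 0.0455), and the call ended when any library but WT refed replicate 2 was left out.

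Hal and Amdhd1, enzymes of histidine degradation, fell in refed livers. Hal (chr10:93488768-93516743), histidine ammonia-lyase, catalyses the first step, the release of ammonia from histidine. It had 81.7, 74.1 and 85.9 FPKM in refed livers, against 129, 143 and 112 FPKM in fasted livers. It fell, with all refed values below all fasted values, by 0.66 ± 0.10 on the log2 scale (adjusted p = 0.0256), and the call was lost without any library except WT fasted replicate 3 (adjusted p up to 0.0794). Amdhd1 (chr10:93523338-93540033), the imidazolonepropionase of the same pathway, had 65.0, 64.5 and 62.0 FPKM in refed livers, against 88.6, 82.1 and 83.7 FPKM in fasted livers. Its fall was by 0.40 ± 0.07 (adjusted p = 0.0427), lost without any of the 6 libraries in turn (adjusted p up to 0.158). Hal and Amdhd1 lie 6594 bases apart on chromosome 10, on opposite strands and with their ends facing each other. The other 2 enzymes, added after the values were seen, did not pass. Urocanate hydratase, Uroc1, was at 95.2, 81.5 and 89.3 FPKM in refed livers against 114, 120.4 and 112 FPKM in fasted livers (log2 change -0.38 ± 0.08, adjusted p = 0.0722). Ftcd, the formiminotransferase that passes the carbon to folate, was at 142, 118 and 134 FPKM in refed livers against 161, 154 and 163 FPKM in fasted livers (-0.28 ± 0.08, adjusted p = 0.128). In each of the 4 enzymes the refed values lay wholly below the fasted ones, as they did in 9.51% of all genes tested.

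The promoter windows of the 2 neighbours, Hal (chr10:93488518-93488767, plus strand) and Amdhd1 (chr10:93540034-93540283, minus strand), are given because the genes were called together. The capitals mark the letters TATAAA read from the other strand in Hal and, in Amdhd1, the complement of the insulin response sequence CAAAACAA.
Hal: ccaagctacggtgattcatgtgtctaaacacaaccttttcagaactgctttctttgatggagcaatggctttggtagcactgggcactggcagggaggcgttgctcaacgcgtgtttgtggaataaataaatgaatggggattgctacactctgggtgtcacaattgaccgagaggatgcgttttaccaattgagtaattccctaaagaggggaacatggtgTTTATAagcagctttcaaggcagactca
Amdhd1: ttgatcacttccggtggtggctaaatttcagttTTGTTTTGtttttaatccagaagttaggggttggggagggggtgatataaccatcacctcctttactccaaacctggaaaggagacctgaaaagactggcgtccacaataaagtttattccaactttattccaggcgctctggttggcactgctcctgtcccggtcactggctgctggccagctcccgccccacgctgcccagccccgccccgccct
TATAAA, the letters of a TATA box, was in 12.4% of all windows and in 2 of the 37 windows of called genes, those of Hal and Ube2h. Either strand was counted, so a match need not be a TATA box of the gene. CAAAACAA was in 2.21% of all windows and in 2 of 37, those of Amdhd1 and Atxn7l1. GTAAACA, the core that FoxO factors bind, was in 3.17% of all windows and in 2 of 37, those of Fmo2 and Ube2h.

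Over the 17 genes of the urea cycle and amino acid catabolism, Hal was the 1 call, and 10 were below 0 (median -0.03). Gldc, the glycine decarboxylase of glycine breakdown, stood next to it at 18.3, 17.2 and 19.0 FPKM in refed livers against 33.4, 26.6 and 24.3 FPKM in fasted livers (log2 change -0.59 ± 0.12, adjusted p = 0.0604).

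In heme synthesis 1 enzyme passed. Cpox (chr16:58670208-58680389), the coproporphyrinogen oxidase of mitochondria, had 24.4, 28.5 and 25.9 FPKM in refed livers, against 42.8, 38.7 and 38.3 FPKM in fasted livers. It fell by 0.59 ± 0.10 on the log2 scale (adjusted p = 0.0368), a call that ended without any library except WT refed replicate 2 (adjusted p up to 0.136). Alas1, the rate-limiting enzyme of the same pathway, was at 290.2, 418 and 440.0 FPKM in refed livers against 156, 137 and 285 FPKM in fasted livers. Those groups did not overlap, but the refed minus fasted change of 1.04 ± 0.24 missed the threshold (adjusted p = 0.0835). The log2 changes of Alad, Uros, Urod, Ppox and Fech lay between -0.11 and 0.08, with none called. These enzymes were added after the values were seen. Red cell markers, at 6 loci that were all tested, summed to 369, 511 and 612 FPKM in refed livers, against 410, 913 and 574 FPKM in fasted livers. The groups overlapped and WT fasted replicate 2 was the highest. All 6 loci had a log2 change below 0 (median -0.30), none was called, and their part in the fall of Cpox was not tested.

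Dnajb9 and Ficd, both of which act on the chaperone BiP in the endoplasmic reticulum (ER), rose. Dnajb9 (chr12:44205897-44210068), a co-chaperone of BiP, had 28.0, 25.0 and 29.1 FPKM in refed livers, against 11.9, 16.2 and 17.8 FPKM in fasted livers. The ratio was 1.79 and the log2 change 0.81 ± 0.14 (adjusted p = 0.0365), and the call ended when any library but WT fasted replicate 3 was left out (adjusted p up to 0.136). Ficd (chr5:113735782-113740607), the enzyme that attaches and removes AMP on BiP, had 2.85, 2.91 and 2.80 FPKM in refed livers, against 1.84, 1.76 and 1.89 FPKM in fasted livers. Its log2 change of 0.45 ± 0.07 (adjusted p = 0.0327) was lost without any of the 6 libraries in turn (adjusted p up to 0.12). Dnajb9 was the 1 call among 18 genes of the ER chaperone and unfolded protein list, of which 7 were above 0 and 11 below (median -0.01). BiP itself, Hspa5, was at 272, 213 and 223 FPKM in refed livers against 157, 339 and 212 FPKM in fasted livers, which overlapped.

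The windows before Dnajb9 (chr12:44210069-44210318, minus strand) and Ficd (chr5:113735532-113735781, plus strand) follow, with the E-box CACGTG of Dnajb9 in capitals.
Dnajb9: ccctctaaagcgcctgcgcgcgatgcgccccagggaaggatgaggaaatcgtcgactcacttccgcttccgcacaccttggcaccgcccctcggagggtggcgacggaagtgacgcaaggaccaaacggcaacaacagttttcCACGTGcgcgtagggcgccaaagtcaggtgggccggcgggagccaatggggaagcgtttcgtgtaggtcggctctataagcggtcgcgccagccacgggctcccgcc
Ficd: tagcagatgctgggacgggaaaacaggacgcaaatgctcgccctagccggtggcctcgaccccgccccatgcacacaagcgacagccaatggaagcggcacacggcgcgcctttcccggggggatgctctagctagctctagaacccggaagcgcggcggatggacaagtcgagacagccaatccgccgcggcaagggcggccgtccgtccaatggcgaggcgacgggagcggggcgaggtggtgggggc
The ER stress response element was in 0.113% of all windows and the unfolded protein response element TGACGTGG in 0.563%, and neither was among these letters or in the other windows of called genes. CACGTG, which shares the letters ACGTG with TGACGTGG, was in 6.02% of all windows and in 4 of 37 (Dnajb9, Ivns1abp, Rcan1 and Tspan4), and the cAMP response element TGACGTCA in 1.55% and in 2 of 37 (Rcan1 and Ube2h).

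No gene of ribosome biogenesis passed the test on its own. Of 23 such factors, all tested, 22 were above 0 and 17 had refed values wholly above the fasted ones, beside 52.5% and 10.2% of all genes tested. Their median log2 change was 0.34, with a range of -0.03 for Bop1 to 0.86 for Nop56, and it stayed between 0.295 and 0.428 in all 11 alternatives that could move it. Nop56, a protein of box C/D small nucleolar particles, was at 16.3, 15.8 and 20.1 FPKM in refed livers against 9.55, 7.78 and 10.2 FPKM in fasted livers (adjusted p = 0.0722). Nolc1, which chaperones those particles in the nucleolus, was at 11.2, 8.82 and 14.2 FPKM in refed livers against 6.63, 5.76 and 6.69 FPKM in fasted livers (adjusted p = 0.0604). Polr1a, the largest subunit of RNA polymerase I, was at 3.87, 3.89 and 4.97 FPKM in refed livers against 3.04, 2.90 and 2.91 FPKM in fasted livers (adjusted p = 0.0722). Relative to each gene's mean over the 6 libraries, the median member lay at 0.11, 0.04 and 0.35 in refed livers and at -0.19, -0.22 and -0.16 in fasted livers on the log2 scale. WT refed replicate 3 was thus the highest, and the 3 fasted libraries lay close together.

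A nucleolar gene outside that list passed. Mphosph10, a component of the U3 particle that processes 18S ribosomal RNA, had 6.77, 5.66 and 7.44 FPKM in refed livers, against 3.47, 3.95 and 4.09 FPKM in fasted livers (log2 change 0.65 ± 0.10, adjusted p = 0.0303). Eef1e1, a scaffold of the complex of aminoacyl-tRNA synthetases, had 6.69, 7.04 and 8.61 FPKM in refed livers, against 4.53, 4.90 and 4.97 FPKM in fasted livers (0.54 ± 0.10, adjusted p = 0.0482). Ndufaf4, an assembly factor of respiratory complex I, rose by 0.57 ± 0.10 on the same scale (adjusted p = 0.0365). The call of Mphosph10 and that of Ndufaf4 each ended without WT refed replicate 1 or 3 or WT fasted replicate 1 or 2, and that of Eef1e1 without any of the 6 libraries in turn (adjusted p up to 0.107, 0.121 and 0.144 in that order). 

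Heat shock chaperones, cytosolic but for the mitochondrial Hspd1 and Hspe1, had the highest median of the 20 lists, 0.42. Of 13 members, 11 were above 0 and 5 had refed values wholly above the fasted ones, beside 52.5% and 10.2% of all genes tested. None was called. Dnaja1, a co-chaperone of Hsp70, came nearest, at 37.5, 30.9 and 37.4 FPKM in refed livers against 22.9, 27.9 and 27.8 FPKM in fasted livers (log2 change 0.41 ± 0.10, adjusted p = 0.0931). The inducible Hsp70 gene Hspa1b was at 6.22, 2.92 and 4.33 FPKM in refed livers against 2.27, 2.22 and 2.63 FPKM in fasted livers. By library the median member lay at 0.51, -0.09 and 0.17 in refed livers and at -0.37, -0.15 and -0.06 in fasted livers, so WT refed replicate 2 lay among the fasted values. Genes that glucocorticoids induce had a median of 0.31, with 8 of 12 above 0 and none called, and here WT refed replicate 2 was the high one, at 0.48 against -0.02 and 0.00029 in the other two refed libraries and -0.29 to -0.05 in fasted livers. In that library the metallothionein genes Mt1 and Mt2 reached 563 and 424 FPKM, against 185 and 203 FPKM and 49.3 and 71.0 FPKM in the other two refed livers and 164 to 231 FPKM and 68.4 to 117 FPKM in fasted livers.

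Of 25 targets of PPAR-alpha and enzymes of fatty acid oxidation, all tested, 20 were below 0, with a median of -0.19 that stayed between -0.224 and -0.106 in the same alternatives, and 5 had refed values wholly below the fasted ones, beside 9.51% of all genes tested. None was called. Plin2, a coat protein of lipid droplets, missed the threshold most narrowly, at 207, 154 and 160.1 FPKM in refed livers against 290.5, 257 and 265 FPKM in fasted livers (log2 change -0.65 ± 0.12, adjusted p = 0.0506). Its groups did not overlap. The median member lay at 0.02, -0.19 and -0.04 in refed livers and at 0.05, 0.21 and 0.04 in fasted livers.

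Of the remaining lists none held a call. Several of their medians were near 0. They were 0.17 over 14 genes of the ATF4 stress response, 0.11 over 14 hepatokines, 0.06 over 16 clock genes, -0.04 over 10 genes of growth hormone signalling, -0.12 over 17 brakes of mTORC1 and autophagy genes, and -0.17 over 13 genes of bile acids and sterol transport. Under the alternatives the clock median ran from -0.038 to 0.175 and that of growth hormone signalling from -0.117 to 0.0276, and the mTORC1 median was 0.00991 with a filter at 5 FPKM, so these 3 have no settled sign. Nr1d1, the clock repressor REV-ERB-alpha, was at 10.2, 20.3 and 13.4 FPKM in refed livers against 36.5, 22.7 and 21.0 FPKM in fasted livers (log2 change -0.84 ± 0.24, adjusted p = 0.138). Tsc1, an inhibitor of mTORC1, was at 2.82, 2.82 and 2.18 FPKM in refed livers against 3.54, 4.03 and 4.23 FPKM in fasted livers (-0.45 ± 0.10, adjusted p = 0.0642).

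**Figure D3:**
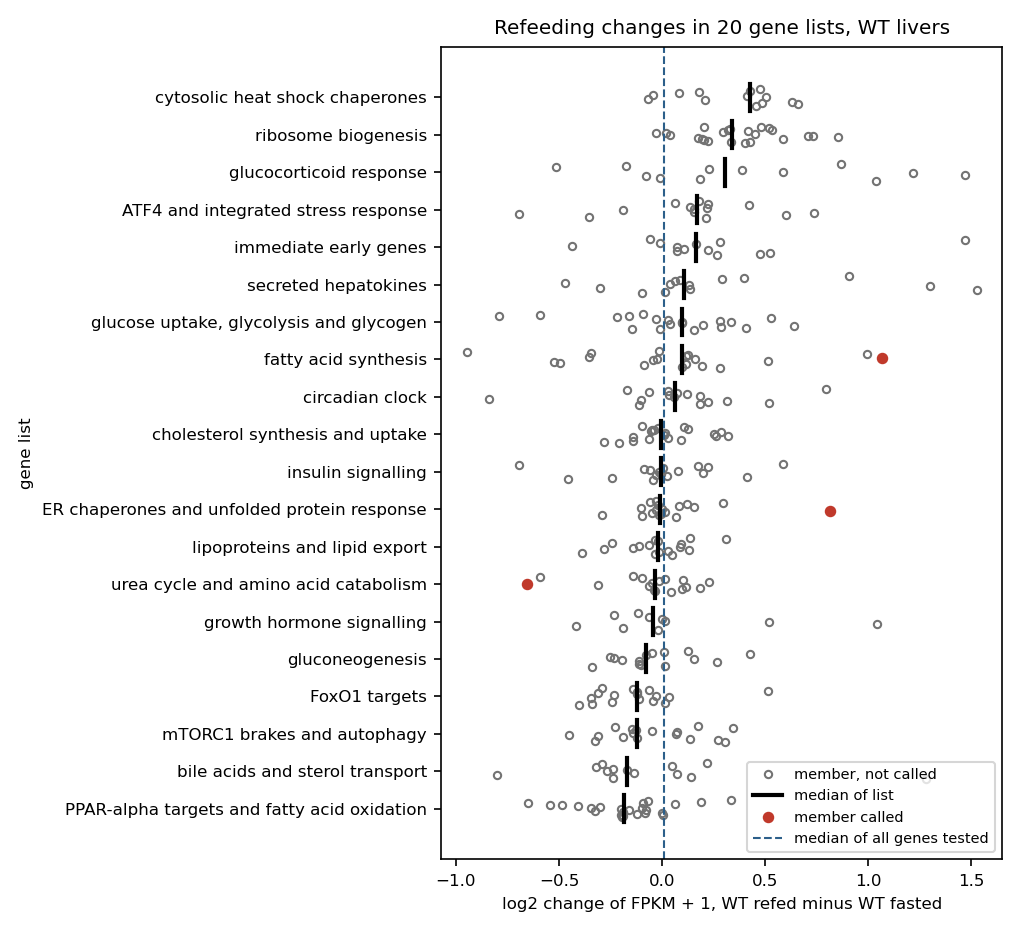
Log2 change of FPKM + 1, WT refed minus WT fasted, of tested members (circles) of 20 gene lists, with the median of each list as a black bar and the median of all genes tested as a dashed line. The filled circles are the called members Thrsp, Dnajb9 and Hal, the median is highest for heat shock chaperones (0.42) and ribosome biogenesis (0.34), and lowest for PPAR-alpha targets (-0.19).

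The other called genes belong to no list. Fmo2, a flavin-containing monooxygenase, had 5.37, 8.69 and 7.0005 FPKM in refed livers, against 1.42, 2.75 and 1.53 FPKM in fasted livers (ratio 3.70, log2 change 1.48 ± 0.25, adjusted p = 0.0365). The predicted gene C730036E19Rik had 8.01, 12.1 and 11.97 FPKM in refed livers, against 1.96, 2.04 and 1.99 FPKM in fasted livers, and its log2 change of 1.94 ± 0.32 (adjusted p = 0.0327) was the highest of all calls. It lies 200402 bases from Ivns1abp, a Kelch-type protein that binds the NS1 protein of influenza virus, which had 35.8, 39.3 and 34.8 FPKM in refed livers, against 19.1, 23.5 and 24.5 FPKM in fasted livers (0.70 ± 0.10, adjusted p = 0.0203). Tspan4, a tetraspanin of the cell membrane, rose by 0.64 ± 0.09 on the log2 scale, and the zinc finger gene Nfxl1 by 0.57 ± 0.10. Tspan4 shares 292 bases with Chid1, whose own change was -0.09.

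Igj, listed in RefSeq as Jchain, encodes the chain that joins IgA and IgM and is made by plasma cells. It had 2.24, 1.81 and 2.04 FPKM in refed livers, against 0.643, 0.855 and 0.683 FPKM in fasted livers, a rise of 0.81 ± 0.10 (adjusted p = 0.0106) that held without any single library. At this low level the size depends on the pseudocount: the log2 change was 1.37 with a pseudocount of 0.1, and the ratio of means was 2.79. Lymphocyte markers summed to 1.95, 2.13 and 2.80 FPKM in refed and 1.81, 2.74 and 3.11 FPKM in fasted livers. Of the 6 markers none was at 1 FPKM or more in all 3 libraries of either group and none at 0 in all 3, and the 1 that was tested was at -0.14. The list holds no marker of plasma cells.

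Among the falling genes, 3 act on small GTPases. Arhgef10l, a guanine nucleotide exchange factor, had 2.83, 3.52 and 3.06 FPKM in refed livers, against 5.07, 5.89 and 5.25 FPKM in fasted livers (log2 change -0.63 ± 0.10, adjusted p = 0.0327). Dlc1, a GTPase-activating protein, had 3.29, 2.83 and 2.86 FPKM in refed livers, against 5.29, 5.06 and 4.72 FPKM in fasted livers (-0.59 ± 0.11, adjusted p = 0.0497). Rin2, an exchange factor for Rab5, had 1.71, 1.56 and 1.39 FPKM in refed livers, against 2.78, 2.42 and 2.86 FPKM in fasted livers (-0.53 ± 0.09, adjusted p = 0.0327). Such a grouping was made after the values were seen. Gtf2ird1, a transcription factor of the TFII-I family, fell to 2.58, 2.61 and 1.70 FPKM in refed livers, against 5.65, 4.69 and 4.97 FPKM in fasted livers (-0.90 ± 0.14, adjusted p = 0.0303). Eepd1, of the endonuclease, exonuclease and phosphatase family, fell by 0.88 ± 0.15, and Tcp11l2 by 0.75 ± 0.13. Atxn7l1, an ataxin 7-like gene that the files list at 2 loci, fell at the locus chr12:33302515-33368277 by 0.65 ± 0.09. At its other locus the change was 0.07 ± 0.11. With a pseudocount of 0.1 the log2 change at the called locus was -1.07. The last falling calls were Fam20a, a pseudokinase of the secretory pathway (-0.57 ± 0.10), Sun2, which links the inner nuclear membrane to the cytoskeleton (-0.54 ± 0.07), the ubiquitin-conjugating enzyme Ube2h (-0.54 ± 0.08) and BC053749 (-0.39 ± 0.07, and -0.72 with a pseudocount of 0.1, where the call ended at an adjusted p of 0.0508).

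Apoo-ps had the lowest adjusted p of all (1.55e-05) and is uncertain, also in size (log2 change -1.94 ± 0.12, and -4.87 with a pseudocount of 0.1). It was listed at 3.42e-09, 3.02e-06 and 9.92e-06 FPKM in refed livers, against 2.36, 3.49 and 2.72 FPKM in fasted livers, so the refed values amount to no measurable level. This pseudogene lies wholly inside Apoo, a gene of the mitochondrial inner membrane, and shares 31079 bases with it. Reads from the shared bases may be assigned to either. Apoo itself stood at 27.4 ± 1.40 FPKM in refed and 24.8 ± 1.36 FPKM in fasted livers (SD, n = 3 each, log2 change 0.14 ± 0.08). In each GFP and Cre group the library highest in Apoo-ps was the lowest in Apoo, though not in KO fasted livers. GFP refed livers had 3.33, 0.256 and 17.5 FPKM of Apoo-ps, with 23.3, 24.6 and 10.98 FPKM of Apoo. Whether reads moved between these loci was not tested. In the fit over all 24 libraries the WT change of Apoo-ps was -1.94 ± 0.96 (limma adjusted p = 0.391).

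The loss of single libraries bore on nearly all calls. In the fit over the 12 WT and KO libraries, Nab1, Shb, Igj, Sgk2 and Apoo-ps stayed called whichever of the 6 WT libraries was left out. For Nab1, Shb, Igj and Sgk2 the limma adjusted p then rose to as much as 0.0495, just under the threshold, and for Apoo-ps to 0.000235. The other 28 lost their call without at least 1 library, with an adjusted p of at most 0.158. Leaving out WT refed replicate 1, 2 or 3 ended 17, 14 or 28 calls, and leaving out WT fasted replicate 1, 2 or 3 ended 21, 25 or 16. None of the 33 changed direction in these fits, and none could, because their refed and fasted values do not overlap.

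The question whether hepatocyte FoxO1 changes this response is addressed by the KO livers, which share the fit but no library with the WT livers. All 33 WT calls had a log2 change of the same sign in KO livers, with absolute values of 0.113 to 2.73, and 28 of the 33 were also called there, beside 5.68% of all genes tested (2% higher and 3.68% lower in refed KO livers). Both comparisons use 1 estimate of the spread. The 5 not called in KO livers were BC053749, C730036E19Rik, Eef1e1, Fam20a and Ivns1abp. The difference itself, the refeeding change in WT livers minus that in KO livers, passed for 0 of 10375 genes (0%) with limma, and 457 genes (4.4%) had an unadjusted p below 0.05. Of the 33 WT calls, which were chosen by their change in WT livers, 6 had such an unadjusted p. The largest difference among the 33 was that of C730036E19Rik (1.39 ± 0.45, limma adjusted p = 0.963). Ivns1abp differed by 0.58 ± 0.14 on the log2 scale (unadjusted p = 0.00181, adjusted p = 0.963), with 26.3, 23.8 and 27.9 FPKM in KO refed and 25.9, 22.2 and 23.7 FPKM in KO fasted livers. Nab1 was at 5.90, 8.17 and 10.4 FPKM in KO refed and 2.39, 2.39 and 2.46 FPKM in KO fasted livers, and its change differed by 0.02 ± 0.22. That of Sgk2 differed by 0.16 ± 0.17.

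**Figure D4:**
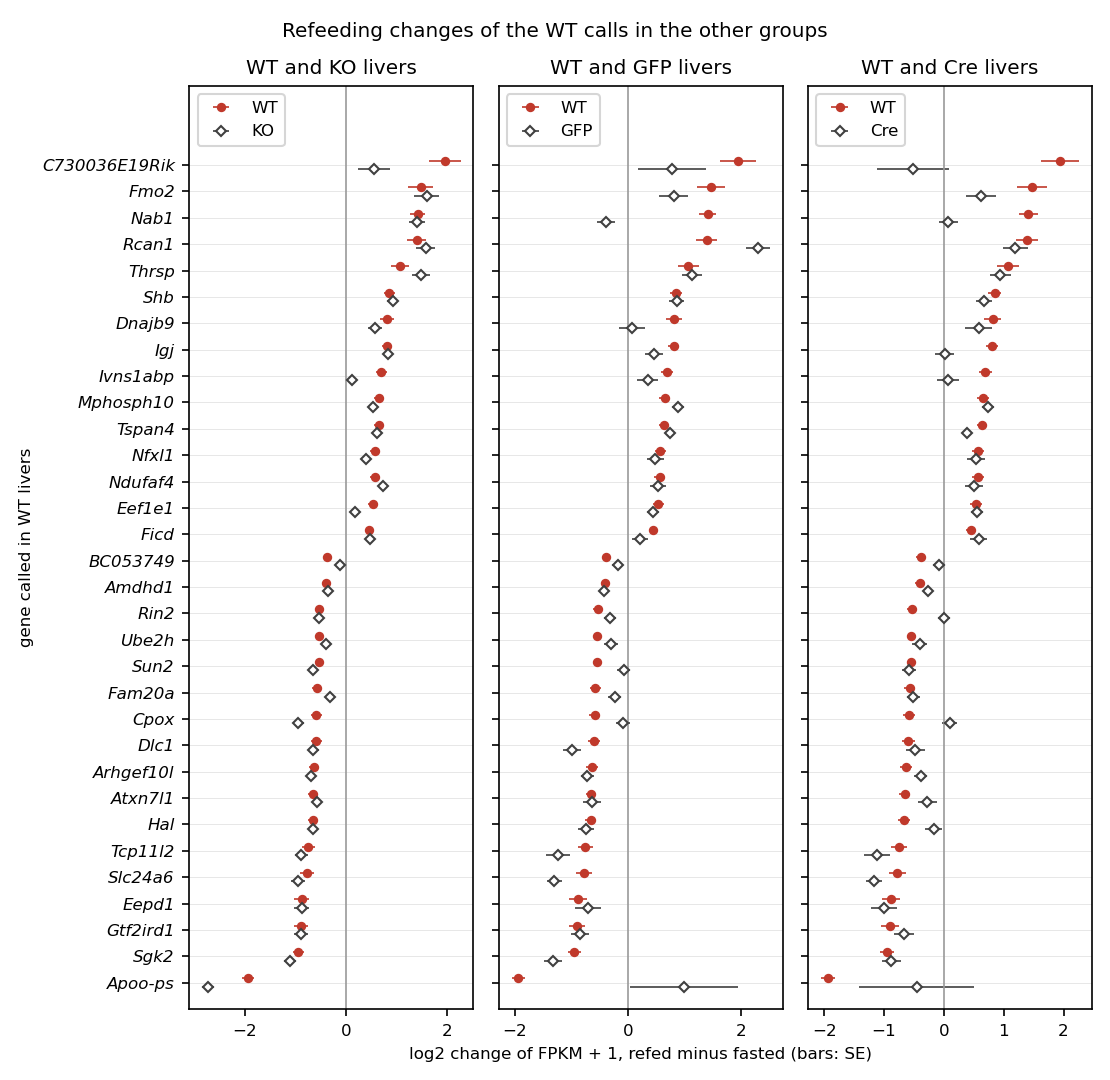
Log2 change of FPKM + 1, refed minus fasted, of 32 genes called in WT livers (filled circles), beside the same change in KO, GFP and Cre livers (open diamonds, 1 panel each), with bars for the standard error. All 32 lie on the same side of 0 in KO livers, whereas Nab1 and Apoo-ps lie on the other side in GFP livers and C730036E19Rik, Cpox and Rin2 in Cre livers.

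The GFP livers are a second floxed control with intact Foxo1, from separate mice that had received a virus. Virus and batch cannot be told apart from the group in this comparison. Depth varied within the GFP libraries, from 0.497 to 1.24 times that of WT fasted replicate 1, and its part was not tested. Replicate 3 was the deepest in both GFP groups (1.24 refed, 1.17 fasted). In a fit over all 24 libraries, 31 of the 33 WT calls had a log2 change of the same sign in GFP livers and 20 were also called there, beside 11.7% of the 10682 genes tested. In Cre livers the numbers were 30 and 18, beside 11.6%. The 33 calls come from the fit over 12 libraries, and part of them did not pass for WT livers in the fit over 24. Among these were Hal (limma adjusted p = 0.0512), Dnajb9 (0.102), Ficd (0.153) and C730036E19Rik (0.16), while Nab1, Rcan1, Thrsp, Shb and Sgk2 passed. The refeeding change differed between WT and GFP livers in 1 gene, Nab1 (0.00936% of genes tested), and 1005 genes (9.41%) had an unadjusted p below 0.05. Of the 33 WT calls 8 had such an unadjusted p. Nab1 was at 2.39, 1.80 and 2.03 FPKM in GFP refed livers against 2.90, 3.38 and 2.76 FPKM in GFP fasted livers, and here the refed values were the lower ones (log2 change -0.39 ± 0.16, adjusted p = 0.115). Its change in WT minus that in GFP livers was 1.80 ± 0.22 (limma adjusted p = 0.0013). Cre livers, at 2.04, 2.82 and 1.83 FPKM refed and 1.54, 2.45 and 2.22 FPKM fasted, had no such rise either (log2 change 0.08 ± 0.16). Cpox, in contrast, fell in WT and KO livers, and had 36.1, 46.0 and 38.2 FPKM in GFP refed against 36.8, 50.8 and 41.3 FPKM in GFP fasted livers. Its difference between WT and GFP livers was -0.50 ± 0.17 (unadjusted p = 0.01, adjusted p = 0.377).

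Insulin-responsive genes with larger changes in GFP livers gave no difference past the threshold. Irs2 was at 0.495, 0.960 and 0.893 FPKM in GFP refed livers, against 3.43, 3.78 and 5.51 FPKM in GFP fasted livers, a fall of 1.55 ± 0.20 (adjusted p = 0.000111). Set against the WT livers above, the changes differed by 1.30 ± 0.28 (unadjusted p = 0.000165, adjusted p = 0.163). Igfbp1 was at 7.89, 38.4 and 5.93 FPKM in GFP refed livers, against 85.5, 43.6 and 78.4 FPKM in GFP fasted livers. It fell by 2.33 ± 0.56 (limma adjusted p = 0.0117), and its change differed from that in WT livers by 1.93 ± 0.79 (adjusted p = 0.448). Outside these genes, Dnajb9 was at 0.08 ± 0.22 in GFP livers, and its difference was 0.74 ± 0.32 (adjusted p = 0.468). The median change of the ribosome biogenesis list was 0.367 in KO and 0.528 in GFP livers, and that of heat shock chaperones 0.44 and 0.917, while the PPAR-alpha list was at -0.286 and 0.105.

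**Figure D5:**
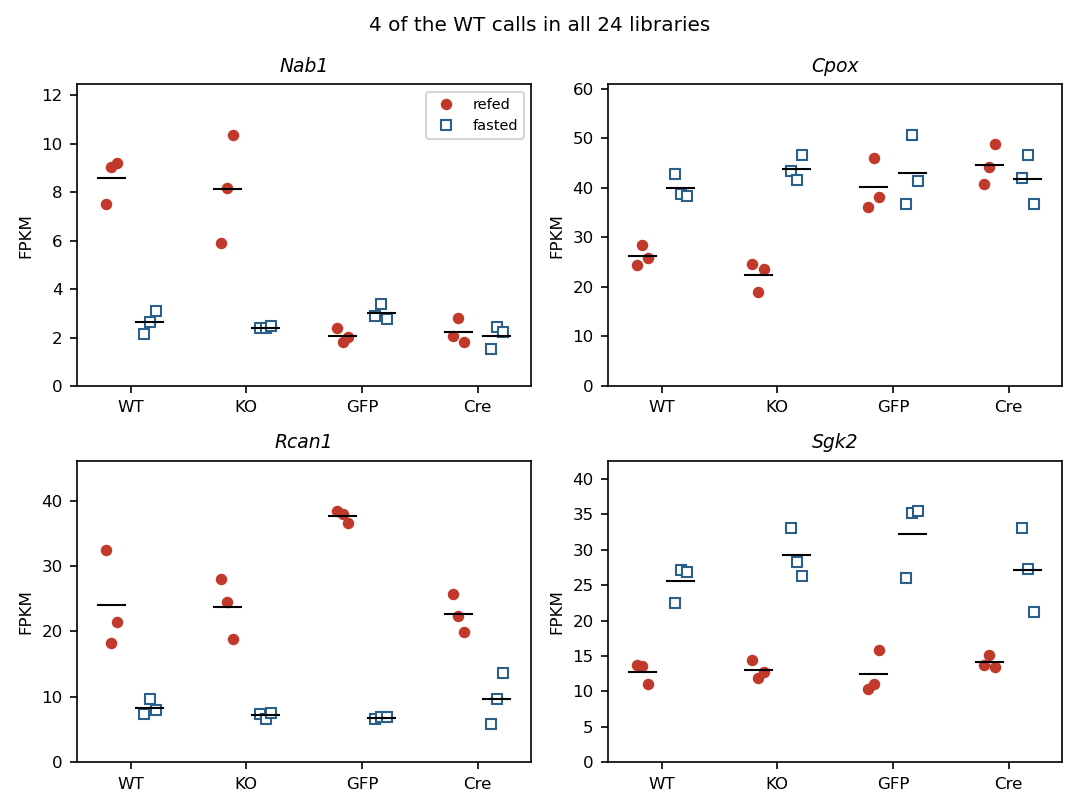
FPKM of Nab1, Cpox, Rcan1 and Sgk2 in all 24 libraries, refed (filled circles) left of fasted (open squares) within WT, KO, GFP and Cre livers, each axis from 0, with black lines at the group means. Nab1 refed values lie above the fasted ones in WT and KO and below them in GFP, Cpox refed values lie below the fasted ones in WT and KO and overlap them in GFP and Cre, and Rcan1 is higher and Sgk2 lower in refed livers of all 4.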

How the data were processed

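Liver RNA of 24 samples was sequenced from TruSeq stranded mRNA libraries, per the labels' protocols. The deposited values are FPKM per gene locus, that is, fragments scaled by transcript length and library total, as the authors made them. Per the submitters' processing notes, HISAT2, Cufflinks and Cuffdiff were used on the build mm10, without versions; how strand was handled was not given in the sources used here. All files share 23746 loci (23284 symbols). Repeated symbols (708 loci) were kept apart, and 14 loci that Cufflinks marked as failed in some library were dropped. Of 2425 loci with a median of 20 FPKM or more in WT livers, 10 were at 0 in some WT library, which means that a listed 0 may stand for an estimate that failed. Deposited locus starts count from 0 and are printed counting from 1.

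Groups and replicate numbers came from the sample titles. Genes with FPKM of at least 1 in at least 3 fitted libraries were tested as log2(FPKM + 1), which understates changes of low genes, with limma 3.58.1 (eBayes with trend after lmFit and contrasts.fit; R 4.3.3, data.table package of version 1.17.8) and 1 coefficient per group. The fit over 12 WT and KO libraries gave refed minus fasted in WT, in KO and their difference, and the fit over all 24 gave the GFP and Cre changes and the difference between WT and GFP. P-values are two-sided, were adjusted by Benjamini-Hochberg across the whole set of kept genes, and gave calls at 0.05. Ratios are of mean FPKM, and log2 errors are standard errors. Tables and figures used Python 3.11.15, pandas 2.3.3, numpy 2.4.6 and matplotlib 3.10.9. The scripts were tested on simulated data. Promoter windows are RefSeq's for GRCm38.p6, the assembly behind mm10, cut to the 250 bases before the start.

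The members and lists were chosen with earlier results of these data known. Named are Foxo1, 11 metabolic genes, the 14 rising and 14 falling calls of non-overlapping groups that changed most on the log2 scale (without predicted genes), and up to 4 called members of each of 20 lists. The calls Ficd, Rin2, Amdhd1, C730036E19Rik and BC053749, and all other genes, were named after their values were seen. A few genes, 1 of the 33 calls among them, are not reported here and are left out of the figures, but they stay in all counts, tests and medians. Of 384 list and marker symbols 382 were found, 7 by an older name. Markers of sinusoidal endothelium, bile duct, neutrophils, red cells, fat and pancreas were also measured, and none of their tested members passed. Alternatives were another pseudocount, other filters, median-of-ratios scaling, array weights, a block for the replicate number, calls at 0.01, the 6 WT libraries alone, and each library left out in turn.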

Additional observations from a re-analysis of the deposited data

Results flagged for a closer look

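Nab1, the Egr corepressor, stands out because its refeeding change differed between the 2 floxed control groups. The change in WT livers minus that in GFP livers was 1.80 on the log2 scale (SE 0.22, limma adjusted p = 0.0013), the 1 such difference among 10682 genes. It stayed past the threshold in all 19 alternatives, at 1.70 to 2.21, with an adjusted p between 0.000772 and 0.00844. WT and GFP livers came from separate sets of mice, and virus and batch cannot be told apart from the group. Depth varied within the GFP libraries (0.497 to 1.24 times that of WT fasted replicate 1), and its part was not tested. No group had more than 3 libraries, so no search for outlying samples was made.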

How the results depend on the processing

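Refed and fasted values of the 33 calls do not overlap, so only a rescaling of libraries could turn a direction. All 33 calls of refed against fasted WT livers kept their direction in every alternative. Their count was 40 with a pseudocount of 0.1, 33 with a filter at 5 FPKM, 21 with no filter, 82 with median-of-ratios scaling, 156 with array weights, 10 from the WT libraries alone, 2 (Nab1 and Apoo-ps) at an adjusted p of 0.01, and 6 to 32 without 1 library. Of the 33, 14 were held with no filter, 5 (Nab1, Igj, Sgk2, C730036E19Rik and Apoo-ps) from the WT libraries alone, and all 33 with scaling or array weights. With the replicate number as a block 80 genes were called, 32 of the 33 among them (not Slc24a6). Deviations of same-numbered WT refed and fasted libraries correlated at -0.024, -0.015 and 0.188, and refed libraries 1, 2 and 3 correlated best with fasted 3, 1 and 3. The numbers were therefore not taken to pair the samples. Same-numbered KO refed and fasted libraries, which share the fit, correlated at 0.281, 0.217 and -0.06, and the reason was not tested. The difference between WT and KO livers gave 0 calls in all settings, the block included, except for 1 without WT refed replicate 2 (Snord16a) and 1 without KO refed replicate 1, a range of 0 to 1. That between WT and GFP livers gave 1 call (Nab1), and 3 without GFP refed replicate 2 (Fads3 and Slc25a30 added) or GFP fasted replicate 3 (Junb and Klf2 added). Among genes that were never called, signs turned with array weights for Pck1 (-0.0213) and Fgf21 (0.0029). They also turned within the ranges without 1 library, which were -0.0575 to 0.158 for Foxo1, -0.627 to 0.0623 for G6pc, -0.0623 to 0.104 for Pck1, -0.0421 to 0.577 for Srebf1, -0.252 to 0.0624 for Fgf21 and -0.398 to 0.0313 for Cyp8b1. The cause of these changes was not tested. Among 11 alternatives that could move list medians (a block, another threshold and the WT libraries alone leave the means as they are), 11 of the 20 lists kept the sign of theirs, with ribosome biogenesis, heat shock chaperones, FoxO1 targets and PPAR-alpha targets among them. The other 9 turned at least once: insulin signalling in 5 alternatives, cholesterol synthesis in 4, urea cycle in 3, clock, ER chaperones, growth hormone signalling and lipid export in 2 each, and fatty acid synthesis and mTORC1 brakes in 1 each. Total depth is unknown, so counting error cannot be given, and 18 of the 33 calls averaged under 10 FPKM.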
